A study of Homo sapiens and Mus musculus with 66 samples.

Results

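Chromatin at or near the nuclear lamina was compared between S phase and G2 phase of HCT116 cells, a human colorectal cancer line. The comparison rests on the region list that the authors deposited for each phase, laid over the 100 kb windows of hg19. A window called in S and not in G2 is termed lost, a window called in G2 and not in S is termed gained, and a window called in both is termed shared. Of 30970 windows on chromosomes 1 to 22, X and Y, 7249 were called in at least 1 of the 2 phases, and among these 5857 were shared, 1069 were lost and 323 were gained.

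The nuclear lamina is a meshwork of lamin proteins under the inner nuclear membrane, and the chromatin that touches it is packed into lamina-associated domains, which are long, poor in genes, rich in A and T bases and mostly silent. In cTSA-seq an antibody to lamin-B1 brings a peroxidase to the lamina, the peroxidase deposits biotin on nearby chromatin, and the biotinylated chromatin is pulled down with streptavidin and sequenced beside an input. Contacts with the lamina are taken apart in mitosis and built again as cells enter G1, while S phase copies the genome and G2 cells hold the copied genome before division.

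Untreated asynchronous cultures were fixed, stained with Hoechst for DNA content and sorted by flow cytometry into G1, S and G2 fractions. The G2 fraction is the G2/M gate, which the authors name G2, and any mitotic cells in it were sorted with it. Each phase has 2 replicates, with 1 input library and 1 library from the streptavidin pull-down per replicate, thus 4 libraries per phase. Other HCT116 lists used here come from sorted asynchronous G1 cells, from a bulk culture, from 50000, 200000 and 1000000 cells, and from cells that were released from a nocodazole block and sorted by G1 DNA content, named 90m G1 and 180m G1. K562 is a human leukemia line.

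Because the replicates of a phase were merged into 1 list, there is no spread between replicates, no test of a change is possible, and the depth is unknown. Calls of the replicates were intersected, so a window absent from a list may have been called in 1 replicate of that phase. The lists hold no signal, so a loss of signal in a window and a move across the calling threshold cannot be told apart.

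Most of the chromatin called in S was also called in G2. The shared windows made up 84.6% of the S windows and 94.8% of the G2 windows, and they covered 585.7 Mb. Lost windows covered 106.8 Mb, which is 15.4% of the S windows and 3.45% of all windows of the genome. Gained windows covered 32.3 Mb, which is 5.23% of the G2 windows and 1.04% of all windows. Losses thus outnumbered gains 3.31 to 1. The S list is the longer one, with 6926 windows against 6180 in G2, so losses exceed gains by construction.

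The same comparison was made between other pairs of lists. These lists rest on unlike numbers of libraries, since the labels used here give 1 input for each cell number and 1 pull-down for 1000000 cells, compared with 2 inputs and 2 pull-downs for each phase, and what this contributes was not tested. Of the windows called in S or G2, 19.2% were in only 1 of the lists. Between lists from different numbers of asynchronous HCT116 cells this value was 14.1% for 200000 and 50000 cells, 16.0% for 1000000 and 50000 cells and 18.1% for 1000000 and 200000 cells. For the bulk list and the 1000000-cell list it was 33.6%. The share that differed between S and G2 was therefore slightly above that between cell numbers and below that between the bulk list and the 1000000-cell list. Between G1 and G2 the value was 16.6%, and between S and G1, which share the S list with the comparison of S and G2, it was 19.6%. The difference of S from both other phases was one-sided, since 15.2% of its windows were absent from G1 and 15.4% were absent from G2, whereas between G1 and G2 the shares were 9.55% of G1 and 8.53% of G2. One-sided differences also occurred between cell numbers, with 5.2% of the 1000000-cell windows and 11.9% of the 50000-cell windows missing from the other list, and between bulk and 1000000 cells, with 28.7% and 9.37%.

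Lost windows lay mainly at the borders of regions that were called in both phases. Adjacent lost windows formed 403 stretches, of which 298 touched a shared window on 1 side. These border stretches held 694 lost windows, or 64.9% (95% Wilson interval 62.0 to 67.7%). Such intervals cover counting error only, and because neighboring windows are not independent they are too narrow. A further 91 stretches with 315 windows (29.5%) touched no shared window and were whole S regions without any call in G2, and 14 stretches with 60 windows (5.61%) lay between shared windows and split a region. Gained windows were divided in a similar way, with 225 windows (69.7%) in 155 border stretches, 85 windows (26.3%) in 40 G2 regions without any call in S and 13 windows (4.02%) in 4 stretches between shared windows. In the pairs of lists from unsorted cells, 52.2% to 57.5% of the differing windows lay at borders, against 66.0% between S and G2. Between S and G1 the share was 57.8%, and between G1 and G2 it was 57.7%.

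Single losses were longer than single gains. The median lost stretch measured 200 kb and the longest 2.2 Mb, and 174 stretches (43.2%) were a single window. The median gained stretch measured 100 kb and the longest 0.6 Mb, and 128 of 199 (64.3%) were a single window. Stretches of at least 500 kb held 42.5% of the lost windows in 66 stretches, compared with 6.81% of the gained windows in 4 stretches. At least 1 Mb was lost in 8 stretches and gained in none.

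Borders were compared at the ends of the 394 stretches of shared windows. Of their 788 ends, 298 lay at the same window in both lists, 298 lay farther in in G2 and 155 lay farther out in G2. Most shifts were small, since 156 of the 298 retreats and 110 of the 155 advances were a single window of 100 kb, which is the resolution of the lists. In all, 564 of 751 borders (75.1%) were within 100 kb in both lists. Left out were 28 ends at a loss and 8 ends at a gain between shared windows, and 1 chromosome end. Regions without a counterpart in the other list were not counted either. The longest retreat was 2.2 Mb, whereas no advance was over 400 kb. Retreat at both ends was seen in 58 shared stretches, advance at both ends in 14, a retreat at one end with an advance at the other in 59, and the same border at both ends in 58.

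**Figure D1:**
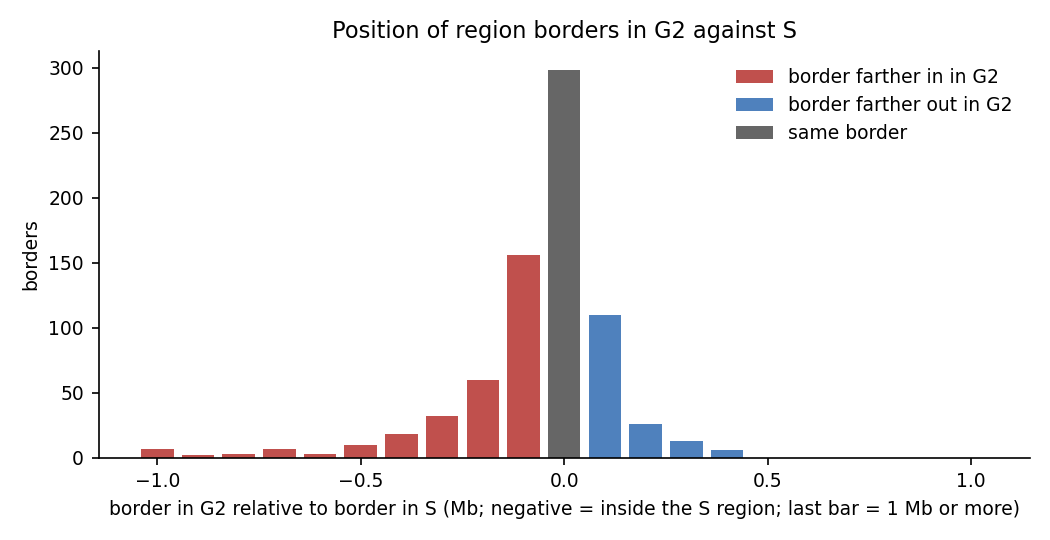
Number of region borders (vertical axis) by the position of the border in G2 relative to S in Mb (horizontal axis), with 298 unchanged borders in gray, 298 borders that lay farther in in G2 in red and 155 that lay farther out in blue. The red side holds 7 borders at 1 Mb or more, drawn in its last bar, while the blue side ends at 400 kb.

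The share of windows lost was lower the farther a window lay from the border of its S region. Of the 920 outermost S windows, 50.3% were lost. The share was 29.8% for the window 100 kb farther in, 18.2% at 200 kb, 9.82% at 300 to 400 kb, 5.73% at 500 to 900 kb, and 1.74% of the 1729 windows at 1 Mb or more. Gains followed the same order at a lower level. They made up 26.1% of the outermost G2 windows, 8.83% of the next, and 0.127% of the windows at 1 Mb or more. Windows that far inside exist only in long regions, and short regions, which more often had no call in the other phase, hold only windows near a border. Distance from the border and region length were not separated, so these shares only describe the lists.

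Short regions were missing from the other phase more often than long ones. Of 22 S regions of a single window, 17 had no call in G2, as did 46 of 79 regions of 200 to 400 kb and 27 of 120 regions of 500 to 900 kb. Only 1 of 145 S regions of 1 to 1.9 Mb had none, and all 105 regions of at least 2 Mb were called in G2 at least in part. For the G2 regions the counts without a call in S were 18 of 27, 19 of 76, 3 of 106, 0 of 130 and 0 of 91 in the same size classes. In total 91 of 471 S regions (19.3%, 95% Wilson interval 16.0 to 23.1%) and 40 of 430 G2 regions (9.3%, 6.91 to 12.4%) had no counterpart. With chromosome Y left out, which held 18 of the S regions without a counterpart, the counts were 73 of 442 and 29 of 408. A longer region has more windows in which a call can meet the other list, so these counts only describe the lists.

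**Figure D2:**
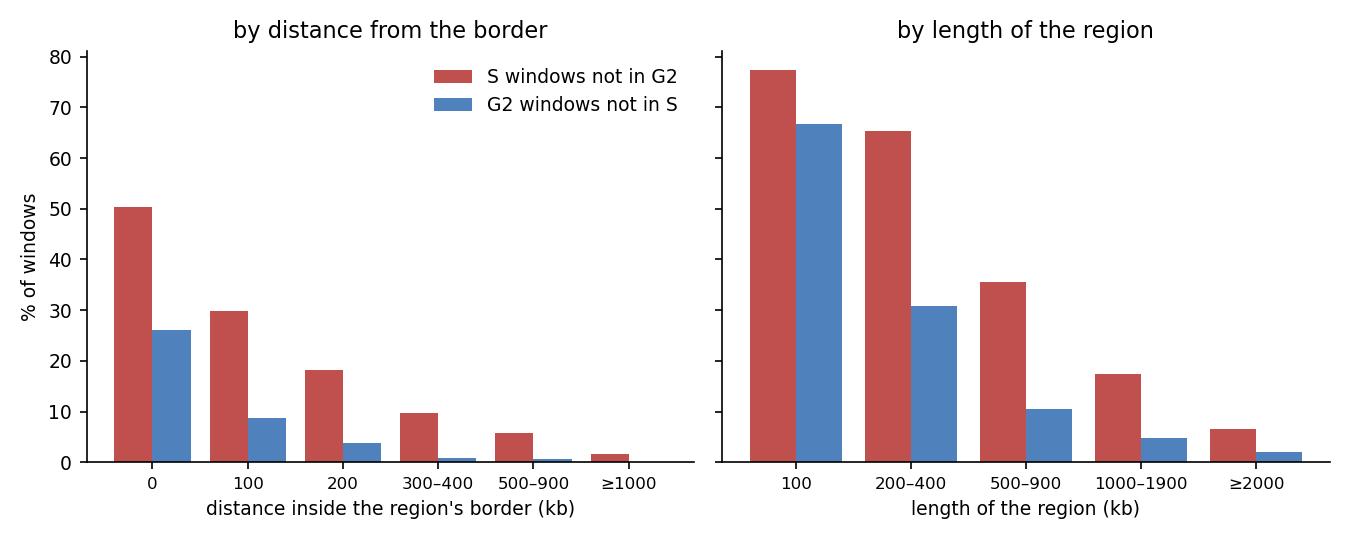
Percent of windows (vertical axis) of the S list that were not called in G2 (red) and of the G2 list that were not called in S (blue), by distance inside the region's border in kb (left) and by length of the region in kb (right). Both shares fall from the border inwards, from 50.3% to 1.74% in S, and from the shortest to the longest regions, from 77.3% to 6.61% in S.

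Losses outnumbered gains on 21 of 24 chromosomes, which are those where the S list was the longer one. Chromosomes 15 and 22 lost as many windows as they gained, with 23 each and 3 each, and chromosome 20 lost 8 and gained 14. Among the 23 chromosomes with at least 50 S windows, the share lost was highest on chromosome Y with 64.1% (50 of 78 windows), on chromosome 19 with 36.0% (27 of 75) and on chromosomes 1, 7 and 13 with 24.9% each. The lowest shares were 5.91% on chromosome 14, 6.2% on chromosome 20 and 6.67% on chromosome 16.

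Chromosomes Y and 19 differed from each other in what they gained. On chromosome Y, 26 of 54 G2 windows (48.1%) were gained, so that the lists had few windows in common there. Chromosome Y carries much repeated sequence, and what repeats contribute to these calls was not tested. Chromosome 19 gained 1 window. On autosomes alone 15.0% of the S windows were lost and 4.9% of the G2 windows were gained. Near the chromosome ends, within 5 Mb, lay 7.86% of the lost, 6.81% of the gained and 6.88% of the shared windows, whereas within 5 Mb of the longest assembly gap, which on most chromosomes holds the centromere, lay 8.14%, 12.1% and 7.17%.

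**Figure D3:**
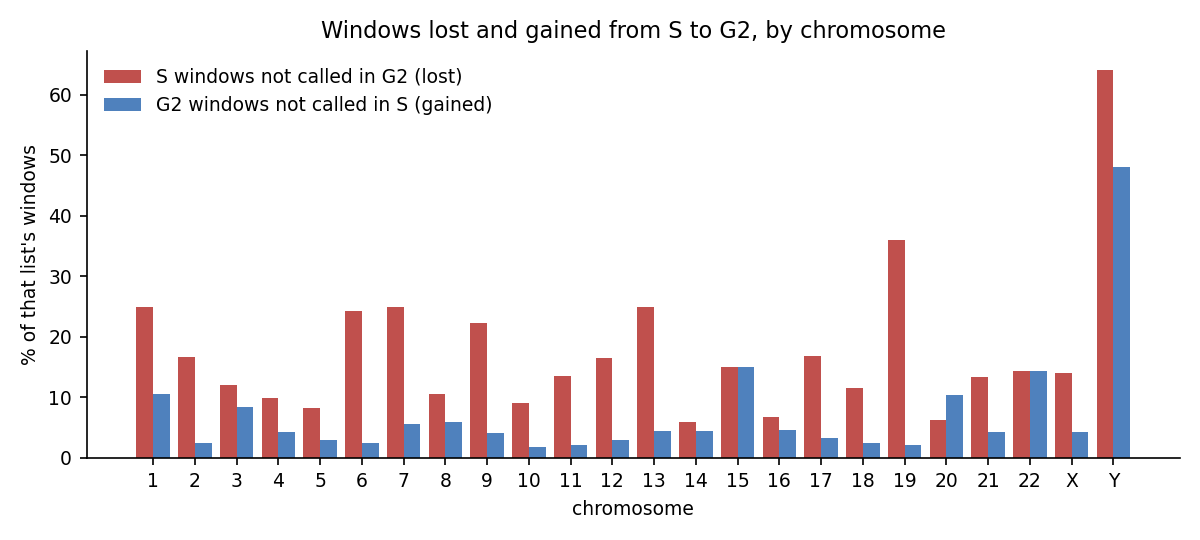
Percent of S windows lost (red) and of G2 windows gained (blue) on the vertical axis for each chromosome on the horizontal axis, 1 value per list without replicates. Chromosome Y is highest for both, at 64.1% and 48.1%, and chromosome 20 has more gained than lost.

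Changed windows had a higher GC content than shared windows and a lower one than the rest of the genome. Mean GC was 38.2% in shared windows (SD over windows 3.09), 39.5% in lost windows (SD 3.45), 40.6% in gained windows (SD 3.42) and 41.7% in windows called in neither phase (SD 5.23). Lost windows were thus 1.31 percentage points above shared windows and gained windows 2.38 points above them, differences smaller than the SD over windows. Lost windows exceeded shared windows on 21 of 24 chromosomes, all but 1, 7 and 19. CpG dinucleotides numbered 7.1 per kb in shared, 7.81 in lost and 8.15 in gained windows.

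GC content also varied with the position in the region, and what position contributes to the differences between classes was not tested. Shared windows next to a border had a mean GC of 40.0%, and shared windows at least 1 Mb inside had 36.5%. Lost windows of border stretches, which reached up to 2.2 Mb from the shared window, had a mean GC of 39.8%. This differed by -0.272 percentage points from the shared windows next to a border, although the positions are not alike. At retreating borders the first lost window had 40.3% and the outermost shared window 40.2%. Lost windows inside a shared region had a mean GC of 37.8%, and S regions without a call in G2 had 39.3%. Gained border windows had 40.9%. At the outermost shared window, mean GC was 40.1%, 40.2% and 40.1% for unchanged, retreating and advancing borders. On the inner side, 500 kb from there, it was 38.9%, 39.4% and 39.2%. Windows at that distance were counted also where the shared stretch was shorter, so not all of them were shared windows. At 500 kb outside the mean GC was 40.7%, 41.3% and 41.3%, and at 900 kb it was 40.7%, 41.4% and 42.4%. The flank of advancing borders was therefore the richest in GC, by less than the SD over borders of 4.32 to 4.51.

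**Figure D4:**
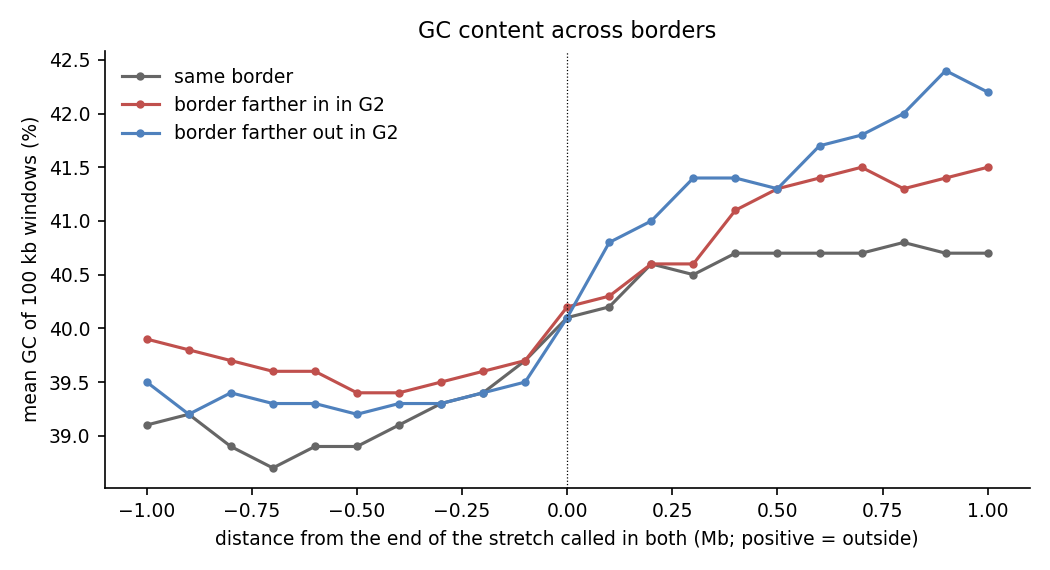
Mean GC of 100 kb windows in percent (vertical axis, not starting at 0) by distance in Mb from the outermost window called in both phases (horizontal axis, positive outside), for unchanged borders (gray), borders farther in in G2 (red) and borders farther out in G2 (blue). The lines meet near 40.1% at the border and part on both sides of it, with the blue line at 42.4% at 900 kb. Windows on the inner side were counted also where the shared stretch ended before them.

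Genes were sparser in changed windows than in the rest of the genome and denser than in shared windows. Genes were assigned to a class when its windows covered 80% or more of their length. Of 20162 protein-coding genes, 797 (3.95%) lay in shared windows, 261 (1.29%) in lost windows and 95 (0.471%) in gained windows. These counts correspond to 1.36 genes per Mb in shared, 2.44 in lost, 2.94 in gained and 7.93 in windows called in neither phase. Without the USP17-like genes, 20 near-identical copies in 2 neighboring windows, the gained windows held 75 genes or 2.32 per Mb. Without the 19 genes of the PRAME family, another tandem family, the lost windows held 242 genes or 2.27 per Mb, so the densities of lost and gained windows were close once both families were left out. Genes in lost windows had a median length of 21.7 kb and those in gained windows 9.19 kb, compared with 30.6 kb in shared windows. These medians include both tandem families, with short genes such as USP17L10 (1.593 kb, gained) and PRAMEF12 (4.169 kb, lost). Medians without the families were not computed.

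Gene starts in lost, gained and shared windows had fewer CpG dinucleotides before them than starts in the rest of the genome. In the 300 bases before the start of the gene, the median number of CpG dinucleotides was 7 for 834 genes that start in shared windows, 9 for 320 in lost windows, 11 for 115 in gained windows and 16 for the 18871 in windows called in neither phase. Counted as CpG-rich were stretches with a GC content of at least 50% and a ratio of observed to expected CpG of at least 0.6, which 33.7% of the shared, 32.8% of the lost, 29.6% of the gained and 51.4% of the uncalled starts met, against 50.2% of all. The 95% Wilson interval of the lost starts, 27.9 to 38.1%, held the shares of the shared and of the gained starts. The lost starts include those of the PRAME family and the gained starts those of the USP17-like genes, and values without them were not computed.

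The bases before 4 of the genes named below are shown as examples of CpG-rich and CpG-poor starts. They are 300 bases of hg19 read on the strand of the gene up to its annotated start, with each CpG in capitals. SOX1 and ADGRL2 begin in lost windows, with more and with fewer CpG than the median of the lost starts, ZNF91 begins in a lost window of the chromosome 19 zinc finger cluster, and FCRL5 begins in a gained window.
ADGRL2, chr1:81771532-81771831, plus strand, 4 CpG, GC 36.7%: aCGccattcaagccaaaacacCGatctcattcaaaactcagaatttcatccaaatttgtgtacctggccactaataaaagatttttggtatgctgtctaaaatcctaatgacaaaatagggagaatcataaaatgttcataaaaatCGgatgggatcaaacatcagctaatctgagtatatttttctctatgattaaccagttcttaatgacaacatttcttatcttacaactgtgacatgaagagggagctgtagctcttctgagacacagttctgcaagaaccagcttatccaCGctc
SOX1, chr13:112721163-112721462, plus strand, 39 CpG, GC 80.7%: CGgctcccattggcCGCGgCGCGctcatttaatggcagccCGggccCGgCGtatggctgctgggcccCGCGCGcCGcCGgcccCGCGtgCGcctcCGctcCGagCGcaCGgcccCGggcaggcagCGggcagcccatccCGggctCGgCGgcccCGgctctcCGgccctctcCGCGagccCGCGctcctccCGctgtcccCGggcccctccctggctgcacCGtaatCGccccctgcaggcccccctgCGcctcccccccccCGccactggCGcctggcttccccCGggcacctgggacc
ZNF91, chr19:23578274-23578573, minus strand, 7 CpG, GC 51.7%: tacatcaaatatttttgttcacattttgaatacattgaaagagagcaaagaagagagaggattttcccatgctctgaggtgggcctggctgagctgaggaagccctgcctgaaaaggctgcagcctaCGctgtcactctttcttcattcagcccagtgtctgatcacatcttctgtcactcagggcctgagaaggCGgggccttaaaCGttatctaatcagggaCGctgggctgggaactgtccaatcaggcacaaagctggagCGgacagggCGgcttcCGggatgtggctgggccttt
FCRL5, chr1:157522306-157522605, minus strand, 4 CpG, GC 34.3%: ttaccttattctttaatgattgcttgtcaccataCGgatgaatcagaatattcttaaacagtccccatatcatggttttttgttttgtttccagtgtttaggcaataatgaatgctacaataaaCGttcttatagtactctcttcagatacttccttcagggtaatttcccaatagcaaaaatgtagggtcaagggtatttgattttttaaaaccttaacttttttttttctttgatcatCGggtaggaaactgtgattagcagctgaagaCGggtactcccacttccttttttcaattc

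The 5 longest S regions without any call in G2 lay on 5 chromosomes. The longest, chr6:114900001-115900000 (1.0 Mb), held no protein-coding gene, and 0 of its 10 windows were called in G1, 9 in bulk cells and 10 in K562. The region at chr2:29500001-30300000 (0.8 Mb) covered 88.4% of ALK, a receptor tyrosine kinase of the nervous system, and was called in G1 at 7 of 8 windows. At chr7:37300001-38100000 the region held SFRP4, a secreted modulator of Wnt signaling, GPR141, an orphan G protein-coupled receptor, and NME8, a protein of cilia, and 4 of 8 windows were called in G1.

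The remaining pair were called along their whole length in G1 and in bulk cells, and at 0 of 8 windows in 180m G1. In 90m G1 the region on chromosome 13 was called at 8 windows and the region on chromosome 19 at 0. SOX1, a transcription factor of neural progenitors, was the only protein-coding gene of the region at chr13:112200001-113000000, whose GC content of 48.2% was the highest of the named stretches. At chr19:23300001-24100000 lay ZNF675, ZNF91, ZNF724, ZNF681 and RPSA2, and none of the 8 windows was called in K562.

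The longest lost border stretch spanned chr1:81100001-83300000 (2.2 Mb) and held ADGRL2, which encodes a latrophilin, an adhesion receptor of neurons. None of its 22 windows was called in G1 or bulk cells, 5 were called in 180m G1 and 22 in K562. Another 1.4 Mb at chr18:24800001-26200000 held CDH2 (N-cadherin), with 3 of 14 windows called in G1 and 14 in K562.

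At chr8:96300001-97700000 (1.4 Mb) the lost stretch held SDC2, a cell surface proteoglycan, PTDSS1, which makes phosphatidylserine, MTERF3, a factor of mitochondrial transcription, and GDF6, a growth factor of the BMP family. Of its 14 windows 10 were called in G1 and 14 in bulk cells. The 1.1 Mb at chr7:40500001-41600000 took in 55.2% of SUGCT, a mitochondrial transferase, and 0 of its windows were called in G1. TRIB2, a pseudokinase, lay in 1.0 Mb at chr2:12200001-13200000, of which 0 of 10 windows were called in G1 and 10 were called in both 90m G1 and 180m G1. These stretches differed in their calls outside S, from no call to complete calls.

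The longest lost stretches inside shared regions were 0.8 Mb at chr6:92100001-92900000, 0.7 Mb at chr2:163800001-164500000 and 0.6 Mb at chr16:77600001-78200000. The first held no protein-coding gene and was called at 8 of 8 windows in G1, bulk, 180m G1 and K562. The second took in 35.1% of FIGN, a microtubule-severing enzyme, and was called at 0 of 7 windows in G1 and bulk and at 7 in 180m G1. The third held VAT1L, CLEC3A, a lectin of cartilage, and NUDT7, a peroxisomal hydrolase, and was called at 6 of 6 windows in bulk cells and at 0 in G1.

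Gained regions without a call in S were shorter. The longest of them, chr3:131400001-132000000 and chr8:52900001-53500000 (0.6 Mb each), covered 79.8% of CPNE4, a calcium-dependent membrane-binding protein, and all of ST18, a zinc finger transcription factor, with ALKAL1, a ligand of ALK. Neither had a window called in G1, while bulk cells had 4 and 6 of 6. The 0.5 Mb at chr15:22000001-22500000 held POTEB and POTEB3 and the olfactory receptor genes OR4M2 and OR4N4, which have near copies elsewhere, and all 5 windows were called in G1.

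Immune receptor genes were gained together at chr1:157400001-157800000 (0.4 Mb). All 5 protein-coding genes there, FCRL1 to FCRL5, encode Fc receptor-like proteins of B cells, and none of the 4 windows was called in G1 or bulk cells. At chr7:25300001-25700000 (0.4 Mb) no protein-coding gene was annotated. These stretches were named by length alone, so they need not be typical of the shorter gains.

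Each of the 5 longest gained border stretches measured 0.4 Mb. They lay at chr3:39700001-40100000, which held 55.3% of MYRIP, a linker of myosin to Rab proteins, at chr3:82300001-82700000, at chr9:81100001-81500000, at chr15:46000001-46400000 and at chr15:61000001-61400000, which held 54.0% of RORA, a nuclear receptor. G1 calls covered 2 of 4 windows in the stretch at chr15:46000001-46400000 and 0 of 4 in the others, and K562 was called at all of them. Inside shared regions the longest gains were 0.5 Mb at chrX:75200001-75700000 with PBDC1 and MAGEE1, 0.4 Mb at chr8:57600001-58000000 with BPNT2, a Golgi phosphatase, and 0.2 Mb at chr11:22700001-22900000 with SVIP, an inhibitor of protein degradation at the endoplasmic reticulum, and CCDC179. All windows of these 3 were called in 180m G1, compared with 1, 0 and 0 in G1.

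Gene families that sit in clusters supplied many of the changed genes. Zinc finger (ZNF) genes, many of which encode repressors of transposable elements, had 21 of 515 members in lost windows, or 4.08% against 1.29% of all protein-coding genes, and 5 (0.971%) in gained windows against 0.471% of all. Of the 21, 16 lay on chromosome 19, where the longest were ZNF675, ZNF420, ZNF254 and ZNF91, and 19 of the 21 lay in regions called in G1. Chromosome 19 held 249 of the 515 zinc finger genes and lost 36.0% of its S windows. Neighbors there share stretches, such as ZNF675, ZNF91, ZNF724 and ZNF681 at chr19:23300001-24100000, so members are not separate events. The gained members were ZNF718, ZNF141 and ZNF732 near the end of the short arm of chromosome 4 and ZNF268 and ZNF10 near the end of the long arm of chromosome 12, all inside G1 regions. Zinc finger genes in shared windows numbered 30 (5.83%), against 3.95% of all genes.

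Olfactory receptors, the odor receptors of the nose, had 127 of 414 members (30.7%) in shared windows, 14 (3.38%) in lost and 14 (3.38%) in gained windows. Over all protein-coding genes these shares were 3.95%, 1.29% and 0.471%. Neighboring members often share windows, so they are not separate events. The lost members lay on chromosomes 1, 7 and 11 with 4 each and on chromosomes 9 and 14 with 1 each, and the longest were OR10J1, OR9A4, OR4A5 and OR11H12. Gained members lay on chromosome 14 (7 genes, among them OR4K17, OR4K13 and OR4K1), chromosome 15 (4 genes, among them OR4M2) and chromosome 11 (3 genes). Of the gained members 11 lay in G1 regions, compared with 4 of the lost members.

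The other lists had few members in changed windows. Of 23 cadherins, 1 was lost (CDH2) and 10 were shared, and of 18 ionotropic glutamate receptors, 1 was lost (GRIA3) and 2 were shared. GABRE was the 1 gained gene of 19 GABA-A receptors, of which 9 were shared. Among 373 solute carriers, SLC6A5, a glycine transporter, and SLC24A5, an exchanger of pigment cells, were lost, SLC5A9 was gained and 9 were shared. DEFB112 was lost among 40 beta-defensins and RPS4Y1 among 85 ribosomal protein genes, with none shared in either list.

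Several lists had shared but no changed members, namely keratins with 32 of 149 shared, potassium channels with 13 of 95, protocadherins with 4 of 66, cyclins and CDKs with 2 of 46, cytochromes P450 with 1 of 56 and intestinal epithelial genes with 1 of 48. HOX genes (39), histone genes (83), replication genes (37) and serpins (35) had no member in any called window class. Against 1.29% of all protein-coding genes in lost and 0.471% in gained windows, lists of this size would hold few changed members or none, so nothing is read from the counts of 0.

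Some tandem families were chosen after their values were seen. The PRAME family, whose members are germline and cancer antigens, had 19 of 23 members in lost windows and 4 in shared windows. These 19 lay in 7 windows of chr1:12800001-13800000. The USP17-like deubiquitinases had 20 of 26 members gained, all inside G1 regions, in the 2 windows at chr4:9200001-9400000. Copies in both families are nearly identical, so reads may not have been placed in a unique copy, and the calls there are uncertain. Besides these, 5 of 24 bitter taste receptors (TAS2R3, TAS2R4, TAS2R5, TAS2R38 and TAS2R39) and 5 of 10 SPINK genes, inhibitors of serine proteases (SPINK6, SPINK7, SPINK9, SPINK13 and SPINK14), were in lost windows, none of them in G1 regions. The SPINK genes lay in the stretch at chr5:147500001-148000000. The taste receptors lay in those at chr7:141000001-142000000 and chr7:142400001-142900000. Over all protein-coding genes 1.29% were lost and 0.471% gained. Members that share a stretch are not separate events, and families chosen for their values are no measure of an excess.

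Windows that changed from S to G2 also varied among the other HCT116 lists. Sorted G1 cells had a call at 94.0% of the shared, 34.1% of the lost (95% Wilson interval 31.3 to 36.9%) and 44.9% of the gained windows (39.6 to 50.3%), against 0.982% of the windows called in neither phase. Shared windows next to a border, the outermost windows of each shared stretch, were called in G1 at 77.5%. Thus 364 of the lost windows were called in G1 and S and not in G2, and 705 were called in S alone of the 3 phases. Of the gained windows, 145 were called in G1 and G2 and not in S, and 178 in G2 alone.

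The lists of unsorted cells gave higher shares. Bulk cells had calls at 65.3% of the lost and 70.0% of the gained windows, and 50000 cells at 53.5% and 60.1%. Of the windows called in neither phase, bulk cells had calls at 7.56% and 50000 cells at 2.49%. Over the 5 asynchronous lists (G1, bulk and the 3 cell numbers), 16.1% of the lost, 16.4% of the gained and 85.8% of the shared windows were called in all 5, and 13.5%, 6.81% and 0.171% were called in none. Lost windows inside shared regions were the exception, with 50.0% of their 60 windows called in all 5 lists, whereas S regions without a call in G2 had 2.86% of 315. A total of 111 lost stretches with 206 windows were called over their whole length in both G1 and bulk cells.

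Calls after release from nocodazole were ordered differently for the classes. In 180m G1, 46.1% of the lost and 36.2% of the gained windows were called, against 83.7% of the shared windows and 3.5% of those called in neither phase. In 90m G1 the shares were 29.5% of the lost and 24.5% of the gained windows, against 32.0% of the shared and 12.7% of the neither windows. In K562 the shares were 67.6% of the lost, 56.3% of the gained and 85.4% of the shared windows, over 26.9% for windows called in neither phase. Lost windows were thus called more often than gained ones in these 3 lists and less often in the 5 asynchronous HCT116 lists. The 95% Wilson intervals of lost and gained windows overlapped in 90m G1, bulk, 200000 cells and 50000 cells.

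**Figure D5:**
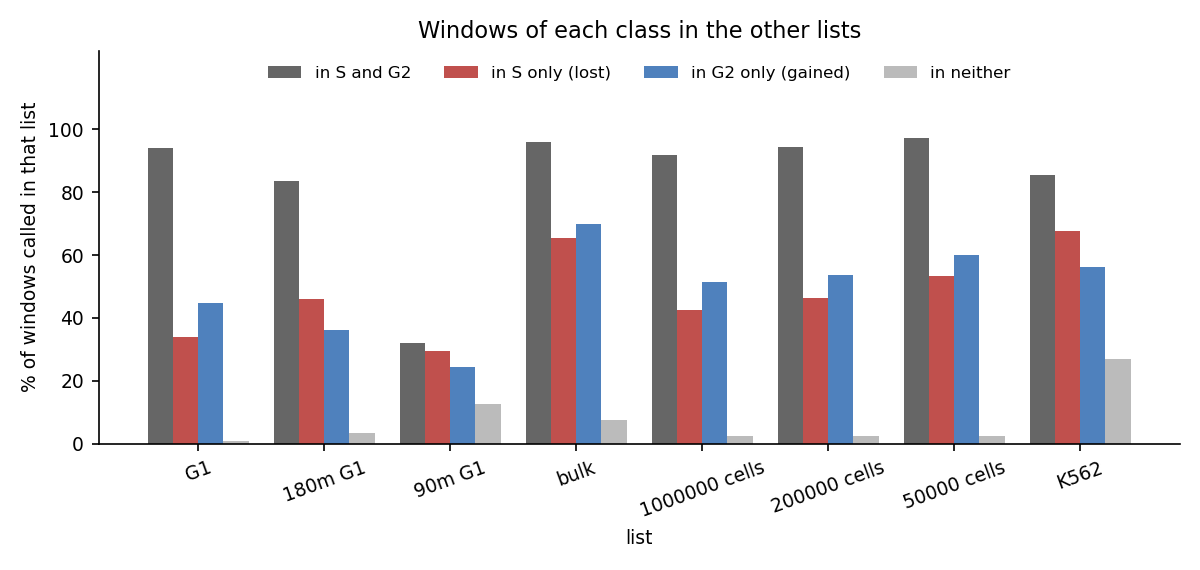
Percent of windows called in each of 8 other lists (vertical axis, lists on the horizontal axis) for windows called in S and G2 (dark gray), in S only (red), in G2 only (blue) and in neither (light gray), 1 value per list without replicates. Lost windows lie below gained ones in G1, bulk and the 3 cell numbers and above them in 180m G1, 90m G1 and K562.

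Lost windows that G1 cells shared with S had another composition than those that they did not share. Their mean GC was 40.7% against 38.9%, and K562 had calls at 58.5% of them against 72.3%. Between chromosomes both shares varied widely. On chromosome 19, 96.3% of the lost windows were called in G1 and 3.7% in K562. On chromosome 1, 14.1% were called in G1 and 81.8% in K562, and on chromosome 4 the shares were 7.41% and 92.6%. Other chromosomes had high shares in both lists, with 58.3% in G1 and 100% in K562 on chromosome 14, 62.5% and 100% on chromosome 20, and 65.2% and 73.9% on chromosome 15. Gained windows were split in the same direction, with a GC of 41.4% for those called in G1 and 40.0% for the others, and K562 calls at 49.7% and 61.8%.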

How the data were processed

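Lamin-B1 cTSA-seq of HCT116 cells sorted in S and G2 was analysed from the deposited region lists. Per the labels and methods, the authors aligned reads to hg19 with Bowtie2 2.3.2, removed duplicates, counted reads in windows with bedtools 2.26.0, scaled libraries to equal totals, formed z-scores of the log2 ratio between pull-down and input, ran a Hidden Markov Model with 3 states and intersected replicates. The values deposited by the authors are chromosome, start and end in bp, with no signal, count or depth.

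Regions were laid on 100 kb windows of chromosomes 1 to 22, X and Y, and adjacent changed windows were joined into stretches. GC values used windows with at least 50% known bases. Gene models were those of GENCODE 44 lifted to hg19, with 80% of the length inside a class required. With 1 list per phase, no test was run. Named were the 5 longest whole and border stretches and the 3 longest inner stretches in each direction with up to 4 protein-coding genes each by length, genes of the family lists by the same limit, and the 3 chromosomes with the highest and lowest share lost. Genes beyond these limits were named after their values were seen. The windows, gene lists and this rule were chosen with earlier results of these data known. Stretch classes were tested on simulated lists. Alternatives were autosomes, region size, joined gaps, border tolerance, gene share and leaving out chromosomes. Python 3.11.15, numpy 2.4.6, pandas 2.3.3 and matplotlib 3.10.9 were used. Of 14 region lists, 4 comparisons of K562 methods were not used.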

Additional observations from a re-analysis of the deposited data

How the results depend on the processing

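Losses outnumbered gains under every alternative tried. All alternatives were drawn from the same S and G2 lists, of which S is the longer, so this largely restates their lengths. Not counting border stretches of a single window lowered the gained windows from 323 to 213 and the share of lost windows at a border from 64.9% to 58.9%. The G2 regions without a call in S numbered 40, and 25 on autosomes only and 25 with regions of at least 200 kb only. With the bulk list in place of G1, 65.3% of the lost and 70.0% of the gained windows were called. All windows of lost border stretches minus shared windows next to a border gave a GC difference of -0.272 percentage points, against 1.31 over all windows. That comparison was added after the data were seen. Leaving out 1 chromosome at a time gave 970 to 1066 lost windows, 284 to 322 gained windows, 73 to 91 S regions and 29 to 40 G2 regions without a counterpart, 63.6% to 66.8% at a border, 20 to 21 chromosomes with more losses, a GC difference of 1.21 to 1.42, 221 to 261 lost and 71 to 95 gained genes, and G1 calls at 32.4% to 36.1% of lost and 43.0% to 47.8% of gained windows. No paired analysis was possible because each phase is deposited as 1 merged list, and leaving out a replicate could not be run for the same reason. The depth of the libraries is unknown, so what depth limits cannot be given.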
